A study of Mus musculus with 12 samples.

Results

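The core circadian clock genes on this array were Per1, Per2, Per3, Cry1, Cry2, Arntl, Clock, Npas2, Bhlhe40 and Nr1d2. They were chosen by name, and a probe set counted only where the platform annotation gave it exactly 1 of these symbols. This left 12 probe sets of 12422 for 10 genes of the 8251 that had such a probe set, since Cry1 had 3 and every other gene had 1. The 3 Cry1 probe sets are called the brightest, the second and the third by their mean signal. By the suffix of its name the brightest may also read related sequences, and the other two were designed under relaxed rules, so Cry1 values are uncertain.

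The genes were followed in the mouse hippocampus, in RNA hybridised to 12 Affymetrix MG-U74A arrays. The 4 groups, of 3 arrays each, were kainate-treated mutants, saline-treated mutants, kainate-treated controls and saline-treated controls. By the title of the series the mutants had lost CREB and CREM, transcription factors that bind the cAMP response element (CRE) in DNA. How and in which cells they were lost, and what alleles the controls carried, is not in the labels used here. All mice were 5 to 6 weeks old, of both sexes and from shared litters, and they lived in single cages with 5 days of handling. Kainate, an agonist of glutamate receptors that evokes seizures, was given into the abdomen at 20 mg/kg, and tissue was taken 1 h later. Every array held the pooled RNA of 3 animals, which gives 9 animals a group. The p-values therefore measure the spread between pools and not between single mice. Neither the hour of day at which mice were killed nor the sex of the animals in each pool was given. The question the design puts to these genes is whether a seizure-inducing stimulus altered their RNA within 1 h, and whether the loss of CREB and CREM altered that response or the level under saline.

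The circadian clock is a feedback loop of transcription. CLOCK, or its forebrain relative NPAS2, pairs with ARNTL (also called BMAL1) and switches on genes that carry E-boxes, among them the Per and Cry genes, whose proteins return to the nucleus and block that pair. BHLHE40 (DEC1) also binds E-boxes and represses, while NR1D2 (REV-ERBβ) is a nuclear receptor that represses Arntl. In the brain's central pacemaker, Per1 is known for its fast rise after light, which runs through CREB at CREs of its promoter. In the hippocampus the clock genes cycle over the day and respond to neuronal activity.

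Promoter windows from the RefSeq annotation of GRCm38.p6, running from 250 bases before a start site to 50 after it, were held for 8 of the 10 genes, in 12 windows. Those of Per1 and Nr1d2 are shown because these genes gave the largest kainate differences of the 10, and that of Per3 because it holds 2 D-boxes. Each reads 5′ to 3′ on the gene's own strand. Capitals mark every match, on either strand, to one of 6 motifs. These are the full CRE TGACGTCA, the CRE core TGACG that lies within it, the E-box CACGTG, the E′-box CACGTT, the D-box as TTATGTAA or TTACGTAA, and AGGTCA, the core that receptors such as NR1D2 bind. The Per1 windows lie on the plus strand at chr11:69098699-69098998 (window 1) and chr11:69099902-69100201 (window 2). The Per3 window is at chr4:151044616-151044915 and the Nr1d2 window at chr14:18239057-18239356, both on the minus strand.
Per1 window 1: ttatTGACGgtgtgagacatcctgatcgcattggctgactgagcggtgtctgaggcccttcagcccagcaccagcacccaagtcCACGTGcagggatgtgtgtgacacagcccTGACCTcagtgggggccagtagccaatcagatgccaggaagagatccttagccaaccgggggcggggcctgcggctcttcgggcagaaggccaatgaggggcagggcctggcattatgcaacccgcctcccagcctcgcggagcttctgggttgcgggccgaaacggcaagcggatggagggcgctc
Per1 window 2: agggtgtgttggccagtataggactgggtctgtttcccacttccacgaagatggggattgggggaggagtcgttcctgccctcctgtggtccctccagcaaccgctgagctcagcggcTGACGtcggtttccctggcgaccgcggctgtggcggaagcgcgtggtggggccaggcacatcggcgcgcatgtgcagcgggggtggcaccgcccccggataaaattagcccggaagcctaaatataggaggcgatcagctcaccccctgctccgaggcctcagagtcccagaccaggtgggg
Per3: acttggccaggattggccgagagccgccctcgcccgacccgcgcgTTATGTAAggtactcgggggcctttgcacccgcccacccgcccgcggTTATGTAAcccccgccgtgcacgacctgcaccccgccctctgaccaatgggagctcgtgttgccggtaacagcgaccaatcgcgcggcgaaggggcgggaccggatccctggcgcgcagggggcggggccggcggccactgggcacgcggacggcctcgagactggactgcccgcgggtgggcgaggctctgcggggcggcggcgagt
Nr1d2: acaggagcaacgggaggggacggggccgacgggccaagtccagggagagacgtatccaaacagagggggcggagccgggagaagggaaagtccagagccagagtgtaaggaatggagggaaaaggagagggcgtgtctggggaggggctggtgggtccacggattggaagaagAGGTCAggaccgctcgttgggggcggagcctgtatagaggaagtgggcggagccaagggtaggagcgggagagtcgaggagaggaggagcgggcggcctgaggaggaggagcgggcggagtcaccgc

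Per1 window 1 held a CRE core, an E-box and the complement of AGGTCA, at -246, -166 and -137 bases from the start. Per1 window 2 held 1 CRE core, at -132. Per3 held TTATGTAA at -205 and -158, and Nr1d2 held AGGTCA at -77. Of the genes not shown, Cry1 had a CRE core at -8, an E-box at -60 and an E′-box at -79. Cry2 had a CRE core at -209 and an E′-box at -166, Arntl had AGGTCA at 32 bases after a start, Clock had it at -119 and Npas2 had no match. None of the 12 windows held the full CRE. Among all 32851 windows of 27025 genes, 1.79% held the full CRE, 20.8% the CRE core, 7.15% the E-box, 4.68% the E′-box, 1.06% the D-box and 16.3% AGGTCA. These matches describe letters in a window and not bound sites.

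The values are log2 intensities as deposited. The 12 arrays were alike in median (4.23 to 4.47), and their interquartile range was 4.40 to 4.61 on 11 arrays, against 3.74 on replicate 3 of the kainate-treated controls. That array stands apart from the rest, and values without it are given below for the members it moved most. Arrays numbered replicate 1 also deviated together, which shows in Cry2. In every group replicate 1 was also the highest array for Per1 and the lowest for the brightest Cry1 probe set. Kainate raised the immediate-early genes Fos, Junb and Egr1, by 5.34, 3.12 and 1.62 averaged over the genotypes by their brightest probe sets, where each passed the test. A dimmer probe set of Junb also passed (4.93), while dimmer probe sets of Fos (0.05) and Egr1 (0.03) did not (limma adjusted p = 0.9 each). By its brightest probe set Fos rose by 5.92 in mutants and by 4.77 in controls. The difference between these, 1.14, did not pass (limma adjusted p = 0.333). Under saline Fos was lower in mutants than in controls (-1.16, limma adjusted p = 0.00809). The brightest probe sets of Creb1 and Crem, the genes named in the title, differed between mutants and controls by -0.11 (SE 0.08, limma adjusted p = 0.63) and by -0.29 (SE 0.07, adjusted p = 0.141), averaged over treatments, so neither passed the test. For the brightest Crem probe set the difference was -0.51 under kainate (SE 0.10, limma adjusted p = 0.0889) and -0.08 under saline (SE 0.10), and neither passed. Which part of each transcript the Creb1 and Crem probes read was not examined.

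Of the 12 probe sets, 1 passed the test for kainate averaged over the genotypes, that of Per1, which was 1.85-fold higher with kainate. Across the array 0.942% of probe sets passed this test. A probe set is called changed where its limma p, with Benjamini-Hochberg adjustment across the 12422 probe sets, was under 0.05. No member passed for kainate within the mutants (0.298% of all probe sets did), within the controls (0.33% did), or for a difference in kainate response between the genotypes (0% did). In hippocampal RNA taken as a whole, fewer cells of a type and less RNA per cell cannot be told apart.

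**Figure D1:**
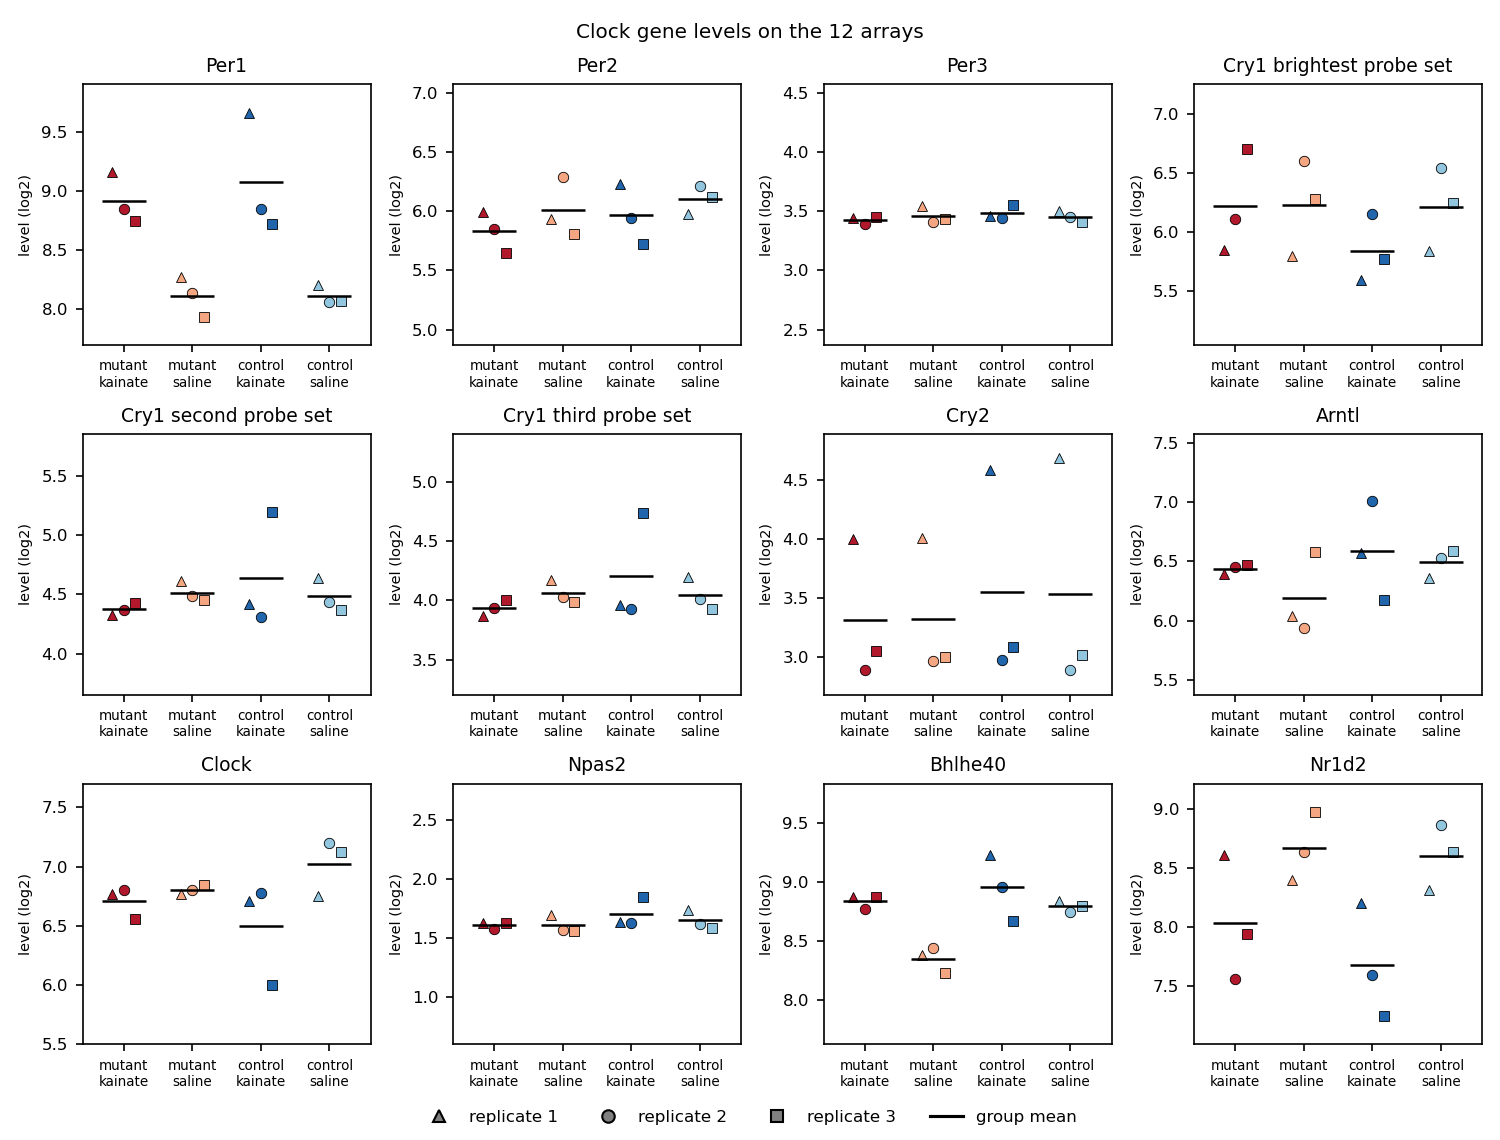
Level of each of the 12 clock gene probe sets (log2 intensity, vertical axes that differ between panels) on the 12 arrays, by group; each point is 1 array, shaped by replicate number, and the line is the mean of 3 arrays. All kainate arrays of Per1 lie above all saline arrays, and Cry2 is higher on the replicate 1 arrays (4.0 to 4.68) than on the other 8 (2.89 to 3.09).

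Period genes, the repressors of the loop, come first. Per1 stood at 9.16, 8.85 and 8.75 on the arrays of kainate-treated mutants and at 8.27, 8.14 and 7.94 on those of saline-treated mutants. In controls it stood at 9.66, 8.85 and 8.72 with kainate and at 8.21, 8.06 and 8.07 with saline. All 6 kainate arrays lay above all 6 saline arrays, and the highest value was replicate 1 of the kainate-treated controls. The averaged difference was 0.88 (SE 0.15, 95% interval 0.55 to 1.22, limma adjusted p = 0.0239). In mutants alone it was 0.80 (SE 0.22, interval 0.32 to 1.28, unadjusted p = 0.00367, limma adjusted p = 0.377), and in controls alone it was 0.97 (SE 0.22, interval 0.49 to 1.44, unadjusted p = 0.00105, limma adjusted p = 0.187). The response in mutants minus that in controls was -0.16, with an interval from -0.84 to 0.51 (limma adjusted p = 0.939), so these arrays bound a genotype difference only loosely. It was 0.13 without replicate 1 and -0.34 without replicate 3 of the kainate-treated controls. Under saline the genotypes' means were 8.12 ± 0.16 in mutants and 8.11 ± 0.08 in controls (SD, n = 3 each).

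The averaged Per1 call depended on single arrays. With 1 array left out at a time the difference ranged over 0.74 to 0.97 and the call was lost in 6 of 12 fits, at adjusted p values of 0.0505 without replicate 1 and 0.0614 without replicate 2 of kainate-treated mutants, 0.0721 without replicate 2 and 0.0822 without replicate 3 of saline-treated mutants, and 0.079 without replicate 2 and 0.0819 without replicate 3 of saline-treated controls. It was also lost with arrays centred on their medians (0.89, SE 0.17, adjusted p = 0.0752). Without replicate 1 of the kainate-treated controls, the highest array, it was 0.74 and still passed. Of the 21 other settings that applied, 14 kept the averaged call. Within controls alone and within mutants alone Per1 passed in 4 of 22 other settings each. Each of those settings also called more probe sets than the reported fit did.

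Per2, a partner of PER1 in the same repressor complex, stood at 5.99, 5.85 and 5.65 in kainate-treated mutants and at 5.93, 6.29 and 5.81 in saline-treated mutants. Control arrays gave 6.23, 5.94 and 5.72 with kainate and 5.98, 6.21 and 6.12 with saline. The groups overlapped in both genotypes, and the averaged kainate difference was -0.16 (SE 0.11, interval -0.41 to 0.09, limma adjusted p = 0.785).

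Per3, a period gene that mouse clocks can largely do without, was nearly flat, at 3.39 to 3.45 in kainate-treated mutants, 3.41 to 3.54 in saline-treated mutants, 3.44 to 3.55 in kainate-treated controls and 3.41 to 3.50 in saline-treated controls. Its averaged kainate difference was 0.00 (SE 0.05, interval -0.11 to 0.11). Its spread between replicate arrays (pooled SD 0.054) was lower than that of all but 1.68% of probe sets, and its mean level lay at percentile 37.6 of all probe sets.

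Cryptochromes are the partners of the period proteins. The brightest Cry1 probe set stood at 5.85, 6.11 and 6.70 in kainate-treated mutants and at 5.80, 6.60 and 6.28 in saline-treated mutants. In controls it stood at 5.59, 6.15 and 5.77 with kainate and at 5.84, 6.54 and 6.24 with saline. Groups overlapped throughout, and the averaged kainate difference was -0.19 (SE 0.19, interval -0.61 to 0.24, limma adjusted p = 0.9). The second and the third Cry1 probe sets gave averaged differences of 0.01 (SE 0.14) and 0.02 (SE 0.13). Both read highest on replicate 3 of the kainate-treated controls, at 5.2 and 4.74. The second ran from 4.31 to 4.64 on the other 11 arrays and the third from 3.87 to 4.20. Without that array, their differences between kainate-treated and saline-treated controls were -0.12 and -0.10, and the averaged ones -0.13 and -0.11.

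Cry2, the other cryptochrome, stood at 4.0, 2.89 and 3.05 in kainate-treated mutants, 4.01, 2.97 and 3.00 in saline-treated mutants, 4.58, 2.98 and 3.09 in kainate-treated controls and 4.68, 2.89 and 3.02 in saline-treated controls. In every group the array numbered replicate 1 was the high one. The pooled SD of 0.792 exceeded that of 98.5% of probe sets. The averaged kainate difference was 0.00 with an interval from -0.89 to 0.89 in the fit of all arrays, and 0.03 (SE 0.08) in a fit of replicates 2 and 3 alone. Kainate and saline arrays of the same genotype and number lay close to each other throughout.

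Among the activators, Arntl stood at 6.39, 6.45 and 6.47 in kainate-treated mutants and at 6.04, 5.94 and 6.58 in saline-treated mutants. In controls it stood at 6.57, 7.01 and 6.17 with kainate and at 6.36, 6.53 and 6.59 with saline. The groups overlapped, and the averaged kainate difference was 0.17 (SE 0.15, interval -0.15 to 0.50, limma adjusted p = 0.9), or 0.28 without replicate 3 of the kainate-treated controls.

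Clock stood at 6.77, 6.80 and 6.56 in kainate-treated mutants and at 6.77, 6.80 and 6.84 in saline-treated mutants. In controls it stood at 6.71, 6.78 and 6.00 with kainate and at 6.75, 7.20 and 7.12 with saline. The groups overlapped in both genotypes, and the lowest array of the 12 was again replicate 3 of the kainate-treated controls. The difference was -0.09 in mutants (SE 0.19) and -0.53 in controls (SE 0.19, unadjusted p = 0.0198, limma adjusted p = 0.574). In controls it was -0.28 without that array. Averaged over genotypes it was -0.31 (SE 0.14, unadjusted p = 0.0442, limma adjusted p = 0.392), and -0.19 without that array (SE 0.09, unadjusted p = 0.0584).

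Npas2 lay at percentile 4.9 of all probe sets by mean level, from 1.56 to 1.85 over the 12 arrays. Its averaged kainate difference was 0.03 (SE 0.06, interval -0.10 to 0.16).

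The repressors Bhlhe40 and Nr1d2 gave the next largest separations. Bhlhe40 stood at 8.87, 8.77 and 8.87 in kainate-treated mutants and at 8.38, 8.44 and 8.23 in saline-treated mutants, which do not overlap. In controls it stood at 9.23, 8.96 and 8.67 with kainate and at 8.84, 8.75 and 8.80 with saline, which do overlap. The kainate difference was 0.49 in mutants (SE 0.13, interval 0.21 to 0.77, unadjusted p = 0.00276, limma adjusted p = 0.341) and 0.16 in controls (SE 0.13, interval -0.12 to 0.44, limma adjusted p = 0.729). The difference between these, 0.33 (SE 0.18, interval -0.06 to 0.73), did not pass (limma adjusted p = 0.939). The value in mutants passed after a further quantile normalisation (adjusted p = 0.0489), which called 48 probe sets there against 37 in the reported fit. It also passed with arrays weighted by their fit (adjusted p = 0.00297). That setting called 1619 probe sets for kainate in mutants, so a pass under it singles out Bhlhe40 little. In controls the kainate difference was 0.02 without replicate 1 and 0.30 without replicate 3 of the kainate-treated arrays. The difference between genotypes was then 0.47 and 0.19. Averaged over genotypes Bhlhe40 differed by 0.32 (SE 0.09, limma adjusted p = 0.148). That value was 0.39 and passed without replicate 3 of the kainate-treated controls (adjusted p = 0.0195), and it was 0.37 and passed after quantile normalisation (adjusted p = 0.018).

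Nr1d2 had the largest negative kainate difference of the 12 probe sets. It stood at 8.61, 7.56 and 7.94 in kainate-treated mutants and at 8.40, 8.63 and 8.97 in saline-treated mutants. In controls it stood at 8.20, 7.59 and 7.25 with kainate and at 8.31, 8.86 and 8.63 with saline. The groups did not overlap in controls and overlapped in mutants, where replicate 1 with kainate lay among the saline values. The averaged difference was -0.77 (SE 0.21, interval -1.24 to -0.31, unadjusted p = 0.00404, limma adjusted p = 0.144). It was -0.63 in mutants (SE 0.30, limma adjusted p = 0.834) and -0.92 in controls (SE 0.30, limma adjusted p = 0.504). The interaction of 0.29 (interval -0.64 to 1.23) was 0.08 without replicate 3 and 0.56 without replicate 1 of the kainate-treated controls. Without that replicate 3 the kainate difference in controls was -0.71. In both genotypes the replicate 1 array was the highest of the kainate arrays and the lowest of the saline arrays. In a fit of replicates 2 and 3 alone the averaged difference was -1.19 (SE 0.14) and passed, at an adjusted p of 0.00741. It also passed without replicate 1 of the kainate-treated controls, at -0.91 (adjusted p = 0.0488). These settings called 778 and 284 probe sets for kainate averaged, against 117 in the reported fit, so many other probe sets gained a call with Nr1d2.

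**Figure D2:**
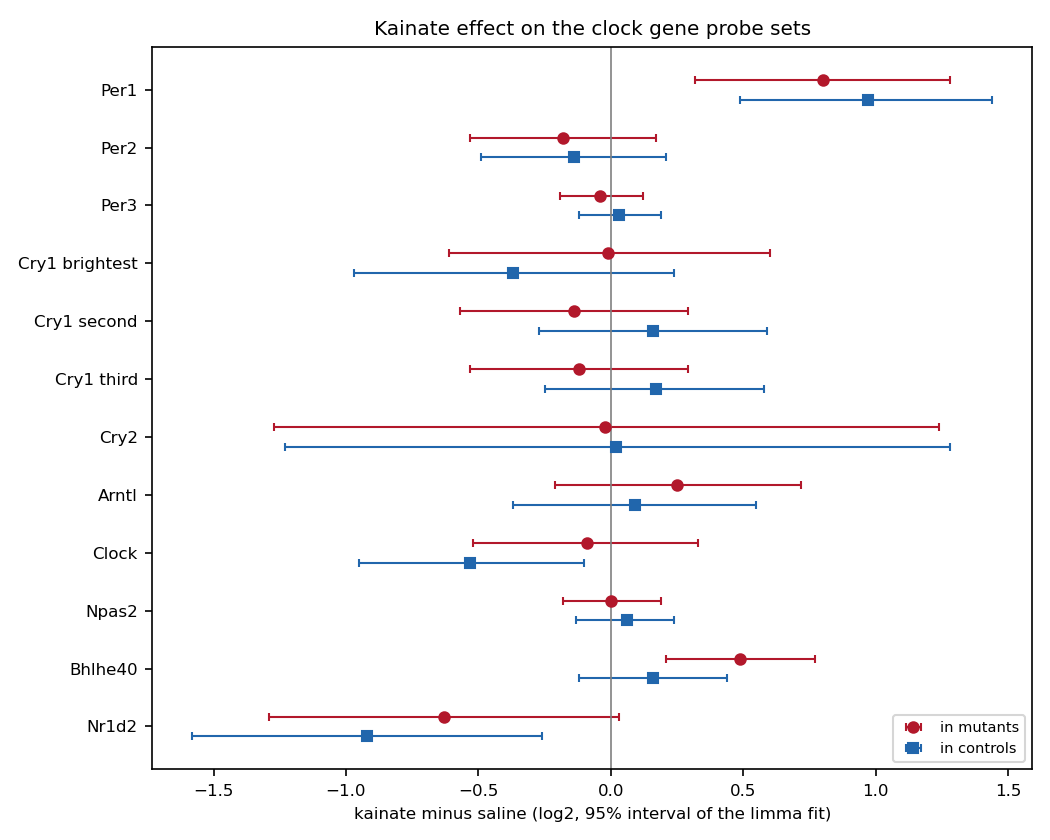
Kainate minus saline (log2, horizontal axis) for each clock gene probe set, in mutants (circles) and in controls (squares), with the 95% interval of the limma fit on 12 arrays. Per1 lies above 0 in both genotypes (0.80 in mutants, 0.97 in controls), Bhlhe40 lies above 0 in mutants (0.49), and Nr1d2 and Clock lie below 0 in controls (-0.92 and -0.53).

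At an unadjusted p under 0.05, averaged over genotypes, the members were 4 (Per1, Clock, Bhlhe40 and Nr1d2) where 11.9% of all probe sets passed. In mutants they were 2 (Per1 and Bhlhe40) against a background of 6.28%, and in controls 3 (Per1, Clock and Nr1d2) against 7.37%. Groups without overlap were seen in mutants for 3 members, namely Per1 and Bhlhe40 higher with kainate and the second Cry1 probe set lower, where 12.4% of all probe sets separated. In controls they were seen for 2, Per1 higher and Nr1d2 lower, where 7.04% did. By the brightest probe set of each of the 10 genes the median averaged kainate difference was 0.00, beside 0.03 over all probe sets. Of the 12 probe sets 7 had a positive difference and 5 a negative one. The interaction gave 0 members at an unadjusted p under 0.05, against 0.861% of probe sets, and its adjusted p values ran from 0.939 to 0.992.

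**Figure D3:**
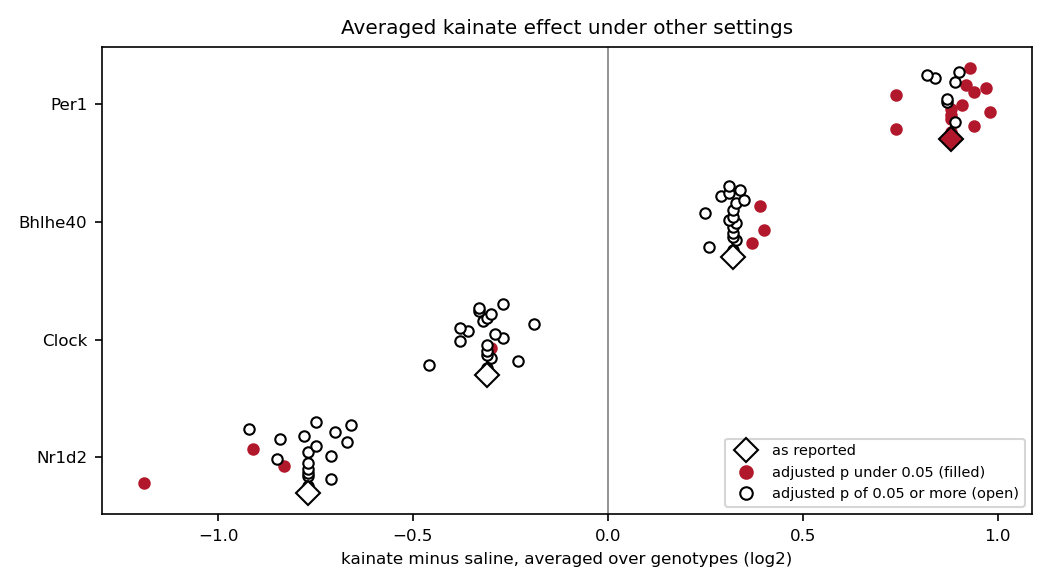
Averaged kainate difference (log2, horizontal axis) of Per1, Bhlhe40, Clock and Nr1d2 as reported (diamond) and under each other setting that applies (circles), filled where the adjusted p was under 0.05. Every value of a gene lies on the same side of 0, and Per1 passes as reported while Nr1d2 reaches -1.19 in replicates 2 and 3 alone.

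Averaged over the genotypes kainate gave no call among 10 microglial, 5 astrocytic or 5 neuronal marker genes, and 1 among 6 markers of endothelium and blood (Hba-a1, higher). Nor did any of 3 choroid plexus markers pass, at a median difference of -0.52. Their mean level was 8.46 to 9.38 in kainate-treated and 8.03 to 9.56 in saline-treated mutants. In controls it was 7.88 to 9.08 with kainate and 9.01 to 9.22 with saline. The part of such tissue in the clock gene values was not tested. The mean levels of the neuronal markers lay between percentiles 94.9 and 99.9 of all probe sets, those of the hippocampal neuron markers between 44.1 and 91.9, and those of markers of neighbouring tissue between 28.6 and 68.8.

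Between the genotypes, no clock gene passed the test in any of 3 comparisons of mutants with controls. Under saline 0.137% of all probe sets passed, under kainate 0.354% and averaged over treatments 0.612%. Bhlhe40 had the smallest p of the members, under saline. With array weights it passed there (-0.38, adjusted p = 0.00852), and so did Clock (-0.37, adjusted p = 0.0112, against -0.22 as fitted without weights). Array weights called 680 probe sets under saline, against 17 in the reported fit. For Bhlhe40 the saline-treated mutants stood at 8.23 to 8.44 and the saline-treated controls at 8.75 to 8.84, without overlap. Its kainate-treated arrays overlapped between the genotypes (8.77 to 8.87 in mutants, 8.67 to 9.23 in controls). The difference was -0.45 under saline (SE 0.13, interval -0.73 to -0.17, unadjusted p = 0.00483, limma adjusted p = 0.667) and -0.11 under kainate (SE 0.13, interval -0.39 to 0.16, limma adjusted p = 0.595). The value under kainate turned on single arrays, at -0.26 without replicate 3 and 0.03 without replicate 1 of the kainate-treated controls. Averaged over treatments it was -0.28 (SE 0.09, limma adjusted p = 0.367), and it passed without replicate 3 of the kainate-treated controls (-0.35, adjusted p = 0.0421) and after a further quantile normalisation (-0.33, adjusted p = 0.0485). Those settings called 98 and 75 probe sets, against 76 in the reported fit.

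Bhlhe40 was the only member of 12 with an unadjusted p under 0.05 under saline (background 2.57%) and averaged over treatments (background 5.98%), and no member reached it under kainate (background 4.96%). It was also the only member whose genotypes did not overlap under saline (background 7.08%), and under kainate no member separated (background 8.99%). The other members' differences averaged over treatments ran from -0.22 for Arntl and for Cry2 (SE 0.15 and 0.40) to 0.21 for Nr1d2 (SE 0.21). For Per1 the difference was -0.08 (interval -0.41 to 0.26) and for Clock -0.01 (interval -0.31 to 0.30). By the brightest probe set of each of the 10 genes the median was -0.07, beside -0.06 over all probe sets. Without replicate 3 of the kainate-treated controls Arntl stood at -0.33 and Nr1d2 at 0.10.

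**Figure D4:**
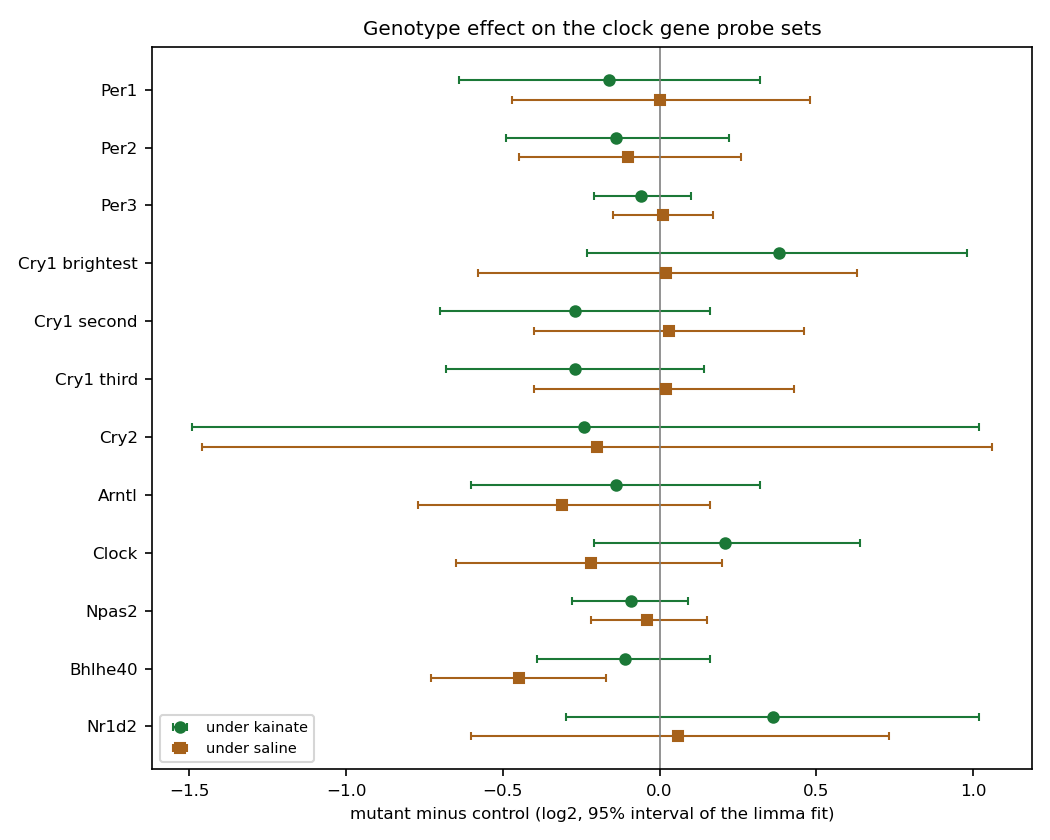
Mutant minus control (log2, horizontal axis) for each clock gene probe set under kainate (circles) and under saline (squares), with the 95% interval of the limma fit on 12 arrays. Only the interval of Bhlhe40 under saline (-0.73 to -0.17) leaves out 0.

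Markers of other cells were counted beside the genotype comparison. Of 10 microglial markers 8 were higher in mutants averaged over treatments, by a median of 1.00 over the list. Their mean level was 7.93 to 8.23 in kainate-treated mutants, 7.64 to 7.89 in saline-treated mutants, 6.87 to 7.02 in kainate-treated controls and 6.72 to 6.78 in saline-treated controls. Of 5 astrocytic markers 1 was higher (Gfap), of 7 markers of hippocampal neurons 1 was lower (Wfs1), and no marker of oligodendrocytes (5 genes), of neurons in general (5 genes), of endothelium and blood (6 genes) or of choroid plexus (3 genes) passed. The part of these cells in the Bhlhe40 values was not tested.

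The genes whose levels ran most like those of Per1 over the 12 arrays, among 5684 probe sets with 1 symbol and a mean above the median level, were Errfi1, Pim3, Nptx2, Ier3 and Odc1. Their Pearson correlations with Per1 were 0.971, 0.951, 0.934, 0.92 and 0.918, as a description over arrays that share the treatment and the replicate numbers. Within groups, with group means removed, the correlations were 0.777 to 0.881. ERRFI1 is an inhibitor of the EGF receptor, PIM3 a kinase, NPTX2 a secreted pentraxin that gathers glutamate receptors at synapses, IER3 an early-response protein and ODC1 the first enzyme of polyamine synthesis. Averaged over genotypes Errfi1 was higher with kainate by 1.63 (limma adjusted p = 0.0231), Pim3 by 0.76 (0.0199) and Ier3 by 1.30 (0.00601), while Nptx2 (1.34, adjusted p = 0.0742) and Odc1 (0.62, adjusted p = 0.0738) did not pass.

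Of a wider list of 32 genes of the clock, 22 were measured. They include the PAR factors Tef and Dbp, which bind D-boxes and activate, their opponent Nfil3, which binds the same sites and represses, the kinases and ubiquitin ligases that act on PER and CRY, and Nr1d1, the relative of Nr1d2. Averaged over the genotypes Nfil3 was higher with kainate, by 1.78 (SE 0.18, limma adjusted p = 0.000553), and Tef was lower, by -0.66 (SE 0.07, limma adjusted p = 0.000902). The other 20 did not pass, and the median of the list was -0.12. Mean levels of Nfil3 were 5.54 in kainate-treated mutants, 4.50 in saline-treated mutants, 7.16 in kainate-treated controls and 4.64 in saline-treated controls. Its kainate difference passed within controls (2.52, limma adjusted p = 0.000715) but not within mutants (1.04, limma adjusted p = 0.283). Under kainate Nfil3 was lower in mutants than in controls (-1.62, limma adjusted p = 0.0309), while the difference in kainate response, -1.48, did not pass (limma adjusted p = 0.939). A second, dimmer Nfil3 probe set gave an averaged kainate difference of 0.10 (limma adjusted p = 0.497). It had the signs of the brightest for kainate in controls (0.19 against 2.52) and for genotype under kainate (-0.17 against -1.62). Its values were far smaller and passed in neither, so the Nfil3 calls rest on the brightest probe set. Tef stood at 9.15 in kainate-treated mutants, 9.76 in saline-treated mutants, 9.10 in kainate-treated controls and 9.81 in saline-treated controls, and it passed within mutants (-0.60, limma adjusted p = 0.0364) and within controls (-0.71, limma adjusted p = 0.0113).

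**Figure D5:**
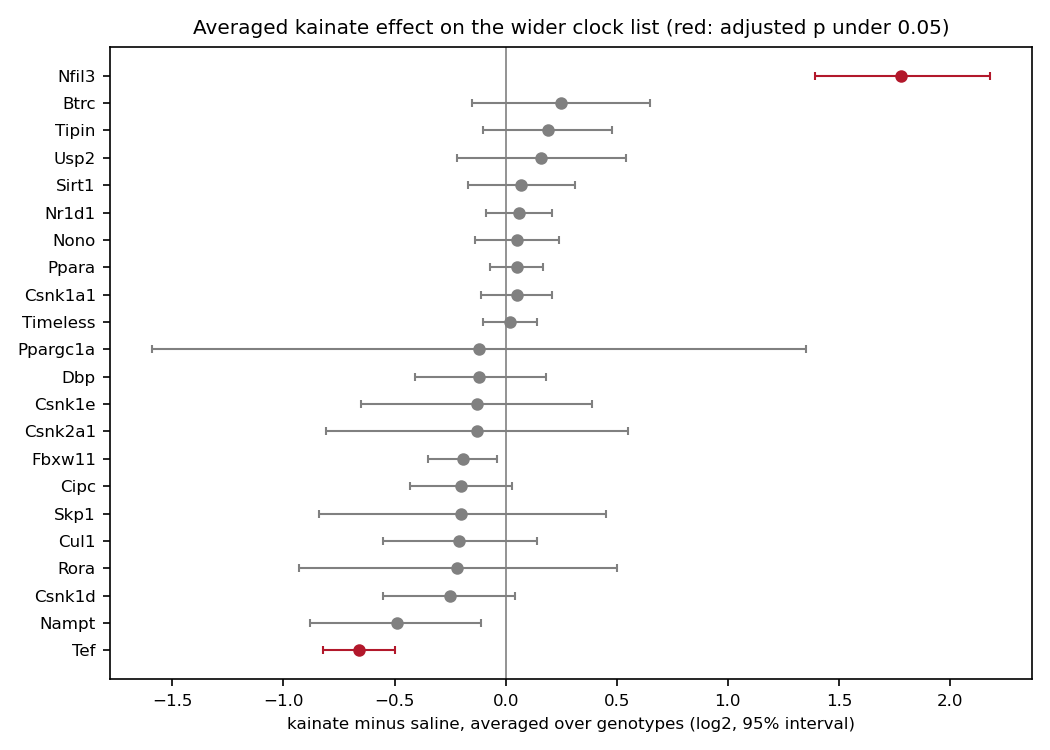
Averaged kainate difference (log2, horizontal axis) with its 95% interval for the 22 measured genes of the wider clock list, each by its brightest probe set, with those that passed in red. Nfil3 (1.78) and Tef (-0.66) passed. Of the other 20 intervals, those of Nampt (-0.88 to -0.11) and Fbxw11 (-0.35 to -0.04) also leave out 0, though neither gene passed.

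Dbp, a direct output of CLOCK and ARNTL, stood at 8.14 in kainate-treated mutants, 8.17 in saline-treated mutants, 7.96 in kainate-treated controls and 8.16 in saline-treated controls, an averaged difference of -0.12 (SE 0.13). Nr1d1 differed by 0.06 (SE 0.07, limma adjusted p = 0.9), where Nr1d2 differed by -0.77 without passing. Nampt, the enzyme that sets the pace of NAD synthesis and a clock output, differed by -0.49 (limma adjusted p = 0.262). The Per3 window printed above holds matches to the D-box, the motif that TEF and NFIL3 bind, but binding there was not measured. Per3 itself differed by 0.00, by a dim probe set (percentile 37.6 by mean level). Whether Tef or Nfil3 acts on Per3 was not tested.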

How the data were processed

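Hippocampal RNA, pooled from 3 mice per array, was hybridised to 12 Affymetrix MG-U74A arrays. The deposited values are log2 intensities that the authors made with GCRMA in R 2.4.1, per the submitters' processing notes; the GCRMA version is not given in the sources used here. Of 12488 probe sets, 66 were the manufacturer's controls and were not tested; no filter on level was used. All arrays entered 1 linear model, with a mean for each group, in limma 3.58.1 in R 4.3.3 (8 residual and 2.48 prior degrees of freedom), for 7 contrasts. The fit was checked on simulated arrays with independent noise, which cannot show the effect of deviations that arrays share. Tests were two-sided, with Benjamini-Hochberg adjustment over 12422 probe sets and a threshold of 0.05. With 3 arrays against 3, an exact permutation test cannot go below p = 0.1 and was not used. Symbols came from the platform annotation, where 10833 probe sets had 1 symbol, 396 had several and 1193 had none, and all 10 members matched RefSeq. The clock genes and the other lists were chosen with earlier results of these data known. All members are described. Genes like Per1 were named as the 5 with the highest correlation. The number of arrays limits the precision. Alternatives comprised other scalings, filters and variance models, array weights, replicate blocks and leaving out arrays.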

Additional observations from a re-analysis of the deposited data

How the results depend on the processing

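Of 84 results for the members, 71 kept their call under each of the 22 other settings that applied to them. Among 1763 values, 1731 had the same call, 25 gained one and 7 lost one, none reversed, and 140 values that were never called had the other sign. The 7 losses are all of Per1 averaged: 0.89 with median centring, and 6 of the 12 fits that leave out an array, which gave 0.74 to 0.97 over all 12. The cause of these moves was not tested, beyond the fewer arrays of some fits. The reported fit did not take the replicate numbers as a pairing, so deviations shared by number stayed in its spread. Same-numbered deviations correlated by 0.368 to 0.848 for number 1, 0.302 to 0.583 for number 2 and -0.0109 to 0.621 for number 3. The lowest values, -0.0109 and -0.00323, both involved replicate 3 of the kainate-treated controls. Among arrays of other groups, 4 arrays of number 1, 4 of number 2 and 3 of number 3 correlated best with their own number. With the replicate block the SE of Cry2 for kainate averaged was 0.11 rather than 0.40, Per1 in controls passed (adjusted p = 0.0292), and the called probe sets numbered 245 for kainate averaged, 30 for genotype under saline, 67 under kainate and 124 averaged. With replicate 1 alone as a block they numbered 64 for kainate in mutants and 333 averaged, and 38, 77 and 140 for genotype under saline, under kainate and averaged; Per1 passed in mutants (adjusted p = 0.0436) and in controls (0.0167). With replicates 2 and 3 alone they numbered 94 for kainate in mutants, 146 in controls and 778 averaged, and 2, 10 and 47 for genotype. Per1 then passed in mutants (a log2 difference of 0.76) and in controls (a log2 difference of 0.72). Fitting only the arrays compared gave 22 for kainate in controls and 5 for genotype under kainate, and averaging probe sets per gene gave 11 for genotype under saline and 29 under kainate. Median centring gave 62 for kainate averaged, 51 higher and 11 lower against 66 and 51 in the reported fit, and 20 for genotype under kainate. In controls it gave 28 higher and 0 lower, against 35 and 6. Array weights (0.0321 to 6.17) gave 1619 for kainate in mutants, 380 in controls and 2036 averaged, 8 for the interaction, and 680, 99 and 478 for genotype, and with them Bhlhe40 (adjusted p = 0.00181), Clock (0.00767) and Nr1d2 (0.00749) passed for kainate averaged, and Bhlhe40 and Clock for genotype under saline. Leaving out 1 array gave 26 to 51 for kainate in mutants, 27 to 56 in controls, 52 to 284 averaged, 0 to 5 for the interaction, and 8 to 20, 12 to 38 and 41 to 103 for genotype. Dim probe sets (Npas2, Per3, Cry2) limit what these arrays can show.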
